A study of Mus musculus with 79 samples.

Results

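The genes described here encode the machinery that brings proteins into mitochondria and helps to assemble respiratory chain complexes I and IV. They were chosen by symbol alone, as genes whose name begins with Timm, Tomm, Ndufaf or Coa and a digit, or with Cox1 and a further digit. Of these genes, 45 were listed in at least 1 table, 44 of them among the 14253 genes of the RORA tables, 41 among the 12952 genes of the PER2 tables and 40 in both. Timm29, Ndufaf8, Coa7 and Coa8 were found by these symbols only in the RORA tables, and Tomm6 only in the PER2 tables. The choice used no measured value, but it was made with earlier results of these data known.

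The libraries came from mouse muscle taken every 4 h through the day, at ZT0, ZT4, ZT8, ZT12, ZT16 and ZT20, where ZT (zeitgeber time) counts the hours since the lights came on. Muscle-specific RORA knockouts (MKO) had 18 libraries and their controls (CTRL) 18, with 3 mice per genotype and ZT. Muscle-specific PER2 knockouts had 24 libraries and their controls 19, with 4 MKO mice and 3 or 4 CTRL mice at each ZT. The labels give the controls' genotype as WT, and the sources used here do not give the Cre driver, the muscle, the sex or the age of the mice. RORA is a nuclear receptor that activates clock genes, and PER2 is a repressor in the circadian clock. The design sets each knockout against its controls around the clock.

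Nearly all mitochondrial proteins are made in the cytosol. The TOM complex is their entry gate in the outer membrane, the TIM23 complex passes proteins with a presequence to the matrix or inner membrane, and the TIM22 complex inserts carriers of the inner membrane, to which the small TIM chaperones escort them. Assembly factors then build the respiratory complexes without becoming part of them: the NDUFAF proteins act on complex I, and the COA proteins and COX10 to COX19 act on complex IV, several of them by making heme or by handling copper. Muscle is rich in mitochondria and depends on this supply chain.

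The values are log2 fold changes from the authors' own comparisons, with 1 table per set and ZT, so no value per mouse is shown and the depth of the libraries is unknown. RORA values are MKO over CTRL. For PER2, neither the tables nor the labels say which genotype is on top, and its values are therefore written only as positive or negative. A mean below is the plain mean ± SD of the log2 fold changes over the 6 ZT (n = 6 ZT). A gene was called at an adjusted p under 0.05, by the deposited value at 1 ZT or by a combined test over the 6 ZT, adjusted by the Benjamini-Hochberg method over all genes of the set (RORA: inverse-variance weighted mean; PER2: Stouffer's sum of z values). All 11 fast sarcomere genes looked for were abundant, the least so Mylk2 at a mean normalized count of 9711 in the RORA tables and 861 CPM in the PER2 tables. Rora itself averaged -1.78 ± 0.15 in the RORA set and was called at each ZT. Per2 averaged 0.37 ± 0.29, from -0.16 at ZT0 to 0.70 at ZT12, and was called over the 6 ZT by Stouffer's sum (adjusted p = 0.000451). By the deposited values at single ZT it was called at ZT12 only. These values do not settle which genotype is on top in the PER2 set. Between libraries of whole muscle, fewer cells of a type and less RNA per cell cannot be told apart.

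The promoters of 4 genes are shown first, since they belong to pairs with opposite changes below: Timm17a and Timm17b, alternative subunits of 1 channel, and Ndufaf5 and Ndufaf4, complex I assembly factors. Each runs from 150 bases before to 30 bases after the RefSeq start site on GRCm38.p6, 5′ to 3′ on the gene's strand. Capitals mark the palindromic NRF1 word, 10 bases long, and AGGTCA, the core word of nuclear receptor sites. The windows are chr1:135313708-135313887 on the minus strand for Timm17a, chrX:7899186-7899365 on the plus strand for Timm17b, chr2:140170496-140170675 on the plus strand for Ndufaf5 and chr4:24897933-24898112 on the plus strand for Ndufaf4.
Timm17a: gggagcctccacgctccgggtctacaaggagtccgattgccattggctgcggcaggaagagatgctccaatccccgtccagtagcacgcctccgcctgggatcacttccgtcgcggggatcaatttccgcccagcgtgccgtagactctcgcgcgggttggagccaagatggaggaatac
Timm17b: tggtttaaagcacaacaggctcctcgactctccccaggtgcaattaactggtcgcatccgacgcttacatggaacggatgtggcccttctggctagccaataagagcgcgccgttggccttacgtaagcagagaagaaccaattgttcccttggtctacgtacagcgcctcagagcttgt
Ndufaf5: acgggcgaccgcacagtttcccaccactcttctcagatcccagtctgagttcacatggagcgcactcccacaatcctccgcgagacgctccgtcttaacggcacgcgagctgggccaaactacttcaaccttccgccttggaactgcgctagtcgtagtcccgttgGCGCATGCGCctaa
Ndufaf4: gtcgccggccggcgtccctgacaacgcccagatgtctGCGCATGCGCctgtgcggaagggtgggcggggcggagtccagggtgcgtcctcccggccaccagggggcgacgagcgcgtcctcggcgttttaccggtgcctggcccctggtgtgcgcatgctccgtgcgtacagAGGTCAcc

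Neither Timm17 window held a capital word. Of the 38 members with a window, only Ndufaf5 and Ndufaf4 had the NRF1 word, at positions 17 and -113 from the start site, and they changed in opposite directions in RORA MKO muscle. Over windows of 300 bases (250 before to 50 after a start site), 38 of the 45 members had 1 or more windows, 41 in all, against 32851 windows of all genes. Both strands were searched. The ETS word CCGGAAG stood in 43.9% of member windows and 8.86% of all windows, the NRF1 word in 4.88% and 0.971%, the E-box CACGTG in 12.2% and 7.15%, and AGGTCA in 22% and 16.3%. The member windows were also richer in GC, at a median of 60% against 52.7%. The longer ROR word (TAGGTCA after any 3 bases) and ERR word TCAAGGTCA both contain AGGTCA. The ROR word stood in 0 of 41 member windows and 2.58% of all windows, and the ERR word in 2.44%, in Timm8b alone, and 0.423%. AGGTCA stood in 1 of 17 windows of members higher in RORA MKO muscle and 2 of 7 windows of members lower there. The remaining members had it in 6 of 17 windows, and 1 of these belongs to Tomm6, which has no RORA value. A match describes letters only and shows no binding.

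In RORA MKO muscle, more of these genes were higher than lower, and the changes were small. By the mean over ZT, 18 of 44 rose, 6 fell and 20 were not called, where 38.2% of all genes were called, 18.9% up and 19.3% down. The called means ran from 0.05 to 0.30 for the genes that rose, a difference of at most 22.7%, and from -0.21 to -0.10 for those that fell, down to -13.7%. The median of the 44 means was 0.05, against 0.00433 for all genes, and the median size of a called mean was 0.13 in the members and 0.14 in all genes. Of 264 member values, the authors' deposited tables called 101. From ZT0 to ZT20 these were 13, 10, 15, 13, 11 and 13 values up and 7, 6, 2, 4, 3 and 4 down, with 28.1%, 29.0%, 27.8%, 22.1%, 20.7% and 32.2% of all genes called. Timm17a, Timm44, Timm22, Ndufaf5, Ndufaf6 and Coa5 were called at each of the 6 ZT, as were 8.65% of all genes, and 17 members at none, as were 41.9%. The sign was the same at each ZT for 15 members above 0 and for the 6 that fell, where 17.5% and 17.1% of all genes kept a sign. Across the 44 members, the values at 1 ZT and the mean of the other 5 ZT had a Spearman rho of 0.67 to 0.86.

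**Figure D1:**
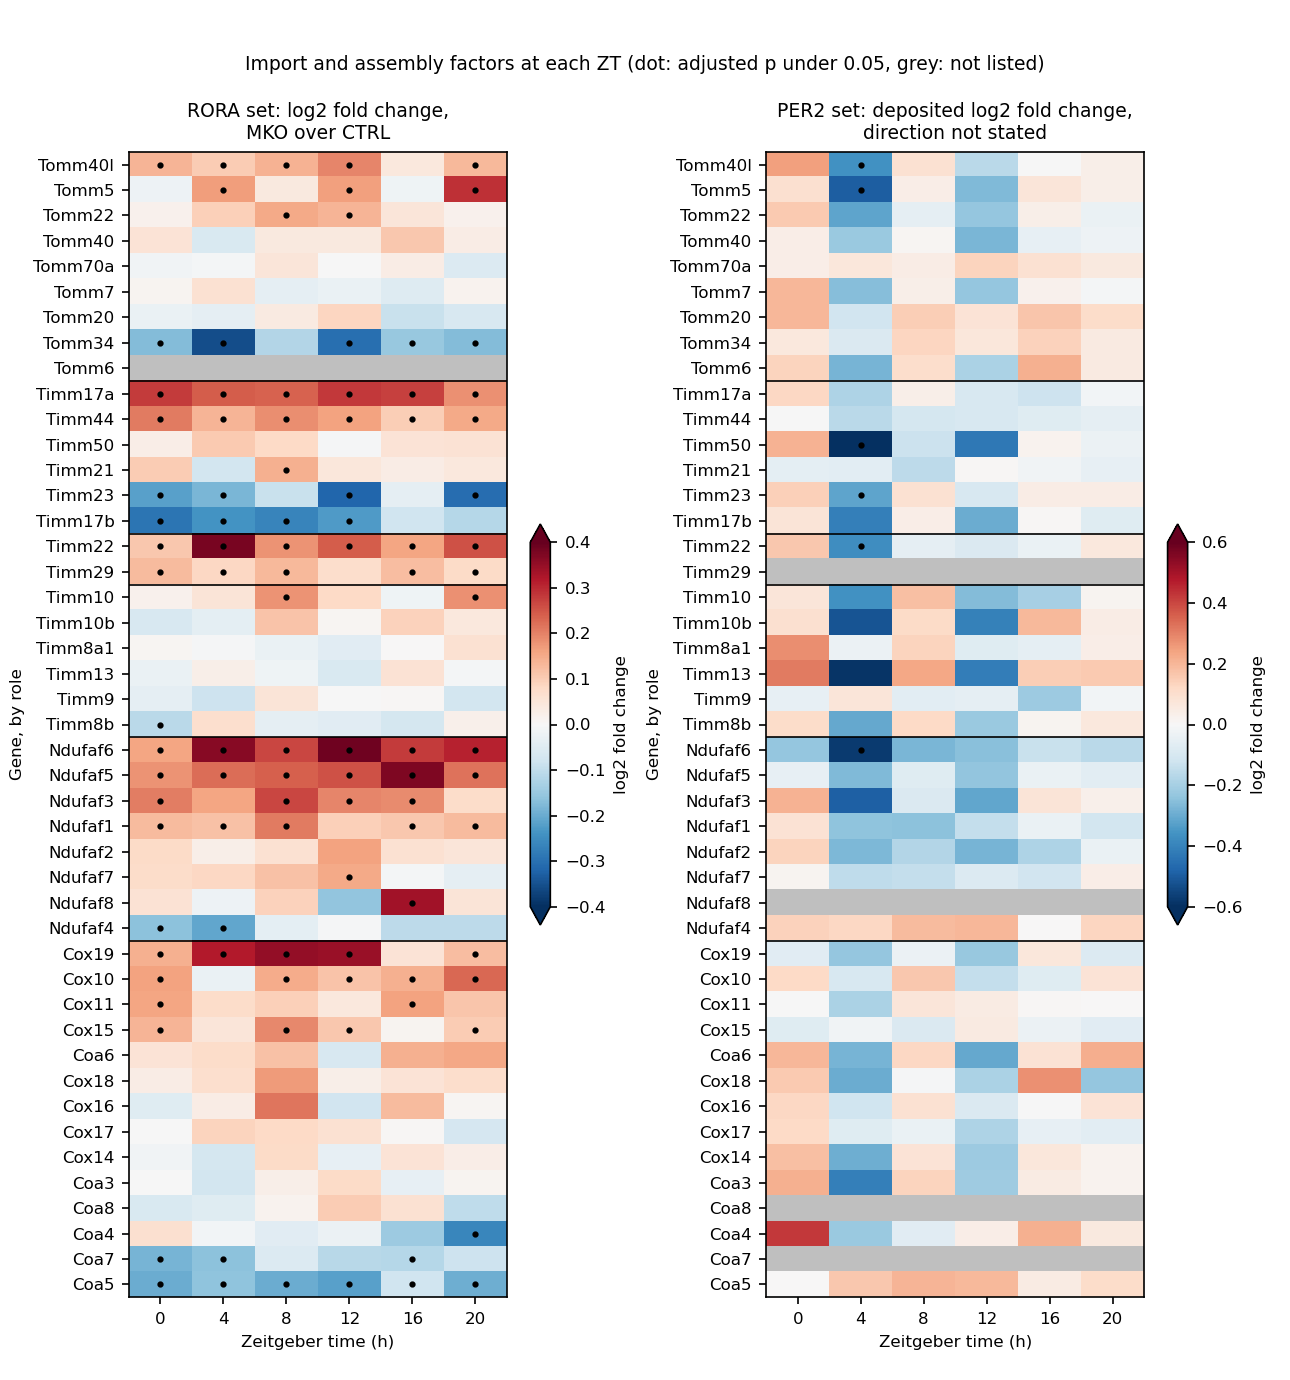
Log2 fold changes of the 45 members (rows, grouped by role and ordered by RORA mean) at 6 ZT (columns, in hours) in the RORA set (left, MKO over CTRL) and the PER2 set (right, direction not stated); dots mark a deposited adjusted p under 0.05 and grey marks a gene not listed. RORA rows such as Timm17a and Coa5 keep 1 colour across the day, and 101 of 264 values are called, while in PER2 the colour changes by column, with ZT4 and ZT12 mostly negative and 6 of 246 values called.

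At the outer membrane, 3 of the 8 TOM genes rose, Tomm34 fell and 4 were not called. Tomm40l, a paralog of the channel protein Tomm40, stood per the authors' deposited tables at 0.14, 0.10, 0.14, 0.20, 0.04 and 0.13 at ZT0 to ZT20, a mean of 0.12 ± 0.05 (adjusted p = 4.71e-11). All 6 values were above 0, and 5 were called. Tomm34, a cytosolic co-chaperone of preproteins, was at -0.17, -0.35, -0.12, -0.30, -0.15 and -0.17 by the authors' deposited tables, a mean of -0.21 ± 0.09 (adjusted p = 7.33e-10). It was the lowest mean of all members and below 0 at each ZT. Tomm22, a receptor of the complex, had deposited table values of 0.02, 0.10, 0.15, 0.14, 0.05 and 0.02, and Tomm5, a small subunit, of -0.02, 0.17, 0.04, 0.16, -0.02 and 0.29. Their means of 0.08 ± 0.06 and 0.10 ± 0.13 were called (adjusted p = 0.000311 and 0.0248), but neither when the spread between ZT served as the error (limma, adjusted p = 0.0567 for Tomm22 and 0.119 for Tomm5). The call of Tomm5 was also lost without ZT4 (adjusted p = 0.104), without ZT12 (0.094) or without ZT20 (0.324). The channel gene Tomm40 itself, at 0.04 ± 0.05, the receptors Tomm20, at -0.02 ± 0.07, and Tomm70a, at -0.0007 ± 0.04, and Tomm7, at -0.0044 ± 0.04, were not called.

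Paralogs within the TIM23 complex moved in opposite directions. Timm17a and Timm17b encode alternative forms of the same channel subunit, and Timm17a rose while Timm17b fell. Timm17a, in the authors' deposited tables, was at 0.28, 0.24, 0.24, 0.28, 0.27 and 0.18, a mean of 0.25 ± 0.04 and the smallest adjusted p of all members (1.43e-81). Timm17b was at -0.29, -0.24, -0.26, -0.23, -0.08 and -0.11 per the authors' deposited tables, a mean of -0.20 ± 0.09 (adjusted p = 1.86e-13). The values of the paralogs did not overlap: the lowest for Timm17a was 0.18 and the highest for Timm17b was -0.08. Per kilobase of the longest transcript, Timm17a was the more abundant in the RORA set, at a mean normalized count of 185 per kb, with 81 per kb for Timm17b. In the PER2 set their levels were closer, at 8.71 and 7.33 CPM per kb. Timm23, the core of the channel, fell by 0.19 ± 0.11, with values of -0.22, -0.18, -0.09, -0.32, -0.04 and -0.31 by the authors' deposited tables. Timm44, which tethers the import motor to the channel, rose, with deposited table values of 0.21, 0.14, 0.19, 0.16, 0.10 and 0.15 and a mean of 0.16 ± 0.04 (adjusted p = 4.25e-24). Of the remaining subunits, the receptor Timm50 was called at 0.05 ± 0.04, but not without ZT4 (adjusted p = 0.0982), without ZT8 (0.0597), with limma (0.104) or with the trend in transcript length and GC content removed (0.381), and Timm21, at 0.05 ± 0.07, was not called. In GENCODE M21, exons of Timm17b overlap Gm10491 on the opposite strand, and the read counter's use of strand is not given in the sources used here. Exons of Timm23 overlap a small nucleolar RNA gene, Gm23946, on the same strand, and its mean normalized count in the RORA tables was only 2.85 times its CPM in the PER2 tables, where the median over members was 14.2.

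Both TIM22 genes rose. Timm22, the channel of the carrier translocase, was at 0.11, 0.38, 0.18, 0.24, 0.16 and 0.26 per the authors' deposited tables, a mean of 0.22 ± 0.09 (adjusted p = 3.6e-24). Timm29, a subunit of that complex in human cells, was at 0.13, 0.08, 0.13, 0.07, 0.12 and 0.08 by the authors' deposited tables, a mean of 0.10 ± 0.03, and its exons overlap Yipf2 on the opposite strand. Of the 6 small TIM chaperones, by contrast, Timm10 alone was called, at 0.08 ± 0.08 (adjusted p = 0.0188), from deposited table values of 0.02, 0.05, 0.18, 0.08, -0.02 and 0.18. Its call was lost without ZT8 (adjusted p = 0.113), without ZT20 (0.187) and with limma (0.0929). Timm8a1, Timm8b, Timm9, Timm10b and Timm13 had means between -0.03 and 0.03. Timm8a1 had the lowest level of all members, at a mean normalized count of 8.7, and Timm8b the highest per length, at 1063 per kb.

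Among the complex I assembly factors, 5 of 8 rose, Ndufaf4 fell and 2 were not called, with a median mean of 0.10. Ndufaf6, required for early steps of complex I assembly, had the highest mean of all members, at 0.30 ± 0.08 (adjusted p = 3.57e-32), with 0.16, 0.37, 0.27, 0.39, 0.28 and 0.31 per the authors' deposited tables. Ndufaf5, which modifies a core subunit, was at 0.18, 0.22, 0.24, 0.26, 0.37 and 0.22 by the authors' deposited tables, a mean of 0.25 ± 0.07 (adjusted p = 1.18e-29). Both were called at each ZT. Ndufaf1, a member of the membrane arm assembly complex, was at 0.13, 0.12, 0.21, 0.10, 0.11 and 0.13 per the authors' deposited tables, a mean of 0.13 ± 0.04. Ndufaf3, a partner of Ndufaf4, averaged 0.18 ± 0.06 and Ndufaf7, an arginine methyltransferase, 0.06 ± 0.07. Exons of Ndufaf3 overlap Impdh2 on the opposite strand, and the call of Ndufaf7 was lost without ZT0, ZT4, ZT8 or ZT12, one at a time (adjusted p between 0.0938 and 0.215), and with limma. Ndufaf4 was at -0.16, -0.21, -0.04, -0.0035, -0.10 and -0.10 by the authors' deposited tables, a mean of -0.10 ± 0.08 (adjusted p = 8.67e-06), below 0 at each ZT and called at ZT0 and ZT4. With the trend in transcript length and GC content removed, its mean of -0.05 was not called (adjusted p = 0.0855). Ndufaf2, at 0.07 ± 0.05, and Ndufaf8, at 0.06 ± 0.16, were not called. For comparison, 32 of 38 structural subunits of complex I rose and 1 fell, with a median mean of 0.12, and 51 of 77 mitochondrial ribosomal protein genes rose and 1 fell, with a median of 0.08.

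**Figure D2:**
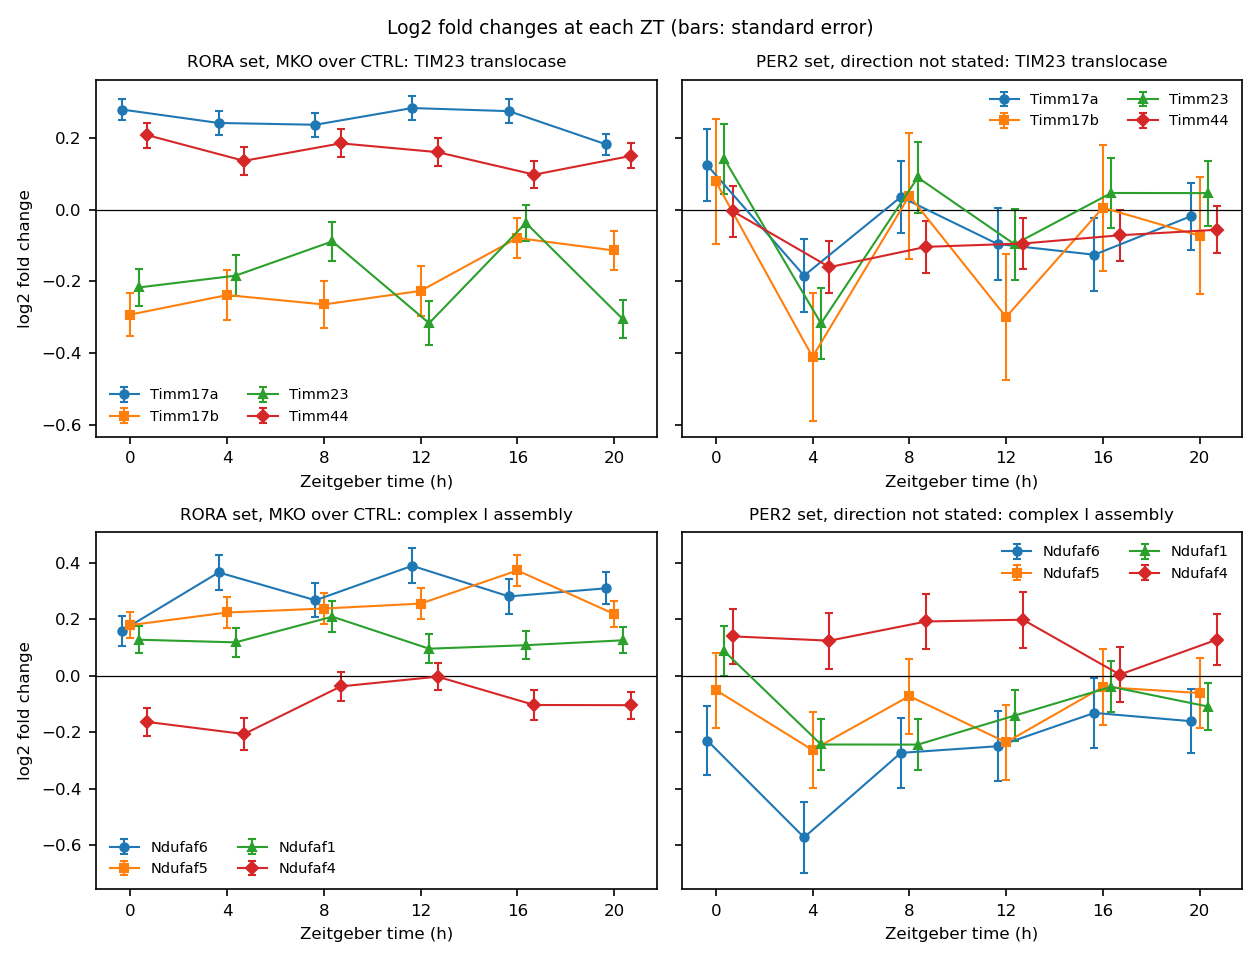
Log2 fold changes (vertical axis) at 6 ZT (horizontal axis, h) for 4 TIM23 genes (top) and 4 complex I assembly genes (bottom) in the RORA set (left, MKO over CTRL) and the PER2 set (right, direction not stated); bars are the standard error, deposited for RORA and derived for PER2. In RORA, Timm17a stays between 0.18 and 0.28 and Timm17b between -0.29 and -0.08, and Ndufaf6 is positive at each ZT in RORA and negative at each ZT in PER2.

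Complex IV assembly factors were mixed: 4 of 14 rose, 2 fell and 8 were not called. Coa5, a cysteine-rich factor of the intermembrane space, had the highest mean normalized count of all members, 2089, and fell, with -0.20, -0.16, -0.20, -0.22, -0.08 and -0.19 per the authors' deposited tables, a mean of -0.17 ± 0.05 (adjusted p = 1.6e-36). It was called at each ZT. Coa7, a heme-binding factor, also fell, at -0.12 ± 0.05. Cox19, which takes part in copper handling, rose by 0.22 ± 0.13 and is described with time of day below. Both genes of heme A synthesis rose: Cox10, heme O synthase, averaged 0.13 ± 0.09 and Cox15, heme A synthase, 0.10 ± 0.06 (adjusted p = 7.86e-11 and 3.02e-07). Cox15 was, by the authors' deposited tables, at 0.14, 0.05, 0.19, 0.11, 0.01 and 0.10, all above 0. Cox11, which brings copper to the catalytic subunit, averaged 0.11 ± 0.05, whereas the copper chaperone Cox17, at 0.03 ± 0.06, was not called. Coa3, Coa4, Coa6, Coa8, Cox14, Cox16 and Cox18 were not called, with means between -0.07 and 0.08. Exons of Cox10, Cox11 and Cox15 overlap genes on the opposite strand.

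The partners of these members, taken from lists, also rose more often than they fell in the RORA set. By the same mean over ZT, 38.2% of all genes were called, 18.9% up and 19.3% down. Of 26 other import, sorting and processing genes, 14 rose and 3 fell. Among those with the smallest adjusted p were Samm50, the insertase of outer membrane barrels, at 0.14 ± 0.04, Pmpcb, a subunit of the presequence peptidase, at 0.18 ± 0.03, Hspa9, the motor chaperone, at 0.14 ± 0.05, and Dnajc15, its co-chaperone, at 0.17 ± 0.08. Of 27 other assembly genes, 8 rose and 3 fell, so the share called was near that of all genes. Those with the smallest adjusted p included Uqcc1, for complex III, at 0.32 ± 0.06. Taco1, which promotes translation of the catalytic subunit of complex IV, stood at 0.25 ± 0.10. Sdhaf2, for complex II, at 0.15 ± 0.05, and Lrpprc, which stabilizes mitochondrial mRNAs, at 0.13 ± 0.07, came next. Markers of other cells and fibre types moved as well. All 10 endothelial markers rose (median mean 0.16), and of 11 fast sarcomere genes 7 fell and 1 rose (median -0.13). None of 9 slow sarcomere genes was called over the 6 ZT, but their median was 0.69 at ZT0 and -0.25 at ZT4. Of the remaining lists, 1 of 4 red blood cell and 1 of 4 brown adipocyte genes rose and 2 of 7 fibroblast genes fell, and no white adipocyte, leukocyte or Schwann cell gene was called over the 6 ZT. At 1 or more single ZT, the authors' deposited tables called all 7 white adipocyte, all 6 Schwann cell and 3 of 6 leukocyte genes. They did so for 8277 of all 14253 genes. The white adipocyte median was -0.73 at ZT0 and 0.44 at ZT20, and the Schwann cell median -0.31 at ZT0, -0.32 at ZT4 and 0.62 at ZT20. The part of all these markers in the members' changes was not tested. Without ZT0 and ZT4, 16 members rose and 6 fell, with 33% of all genes called. Without ZT20, 16 rose and 7 fell, with 34% of all genes called. Both settings kept ZT8 and ZT12, where the endothelial medians were 0.27 and 0.13.

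By Cochran's Q, the RORA effect differed between ZT for 4 of 44 members, a share near the 11.0% of all genes. With z values from the deposited p, 8 of 44 members and 18.4% of all genes were called. Cox19 differed most (adjusted p = 0.000376): by the authors' deposited tables it was at 0.14, 0.32, 0.35, 0.34, 0.06 and 0.12, high at ZT4, ZT8 and ZT12 and lower at the other times, though above 0 throughout. Its Q stayed past the threshold whichever single ZT was left out. Timm23 (adjusted p = 0.00917) was nearest 0 at ZT8 and ZT16 and lowest at ZT12 and ZT20, and its call was lost without ZT16 (adjusted p = 0.161). Timm22 (adjusted p = 0.0373) peaked at ZT4, and without ZT4 its adjusted p was 0.627 and without ZT0 0.187. Cox10 (adjusted p = 0.0428) was at 0.16, -0.03, 0.15, 0.12, 0.14 and 0.23 per the authors' deposited tables, near 0 at ZT4 alone, and without ZT4 its adjusted p was 1 and without ZT20 0.174. Timm17a, Timm44, Ndufaf1 and Ndufaf5 did not pass this test, and each kept 1 sign at all 6 ZT.

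**Figure D3:**
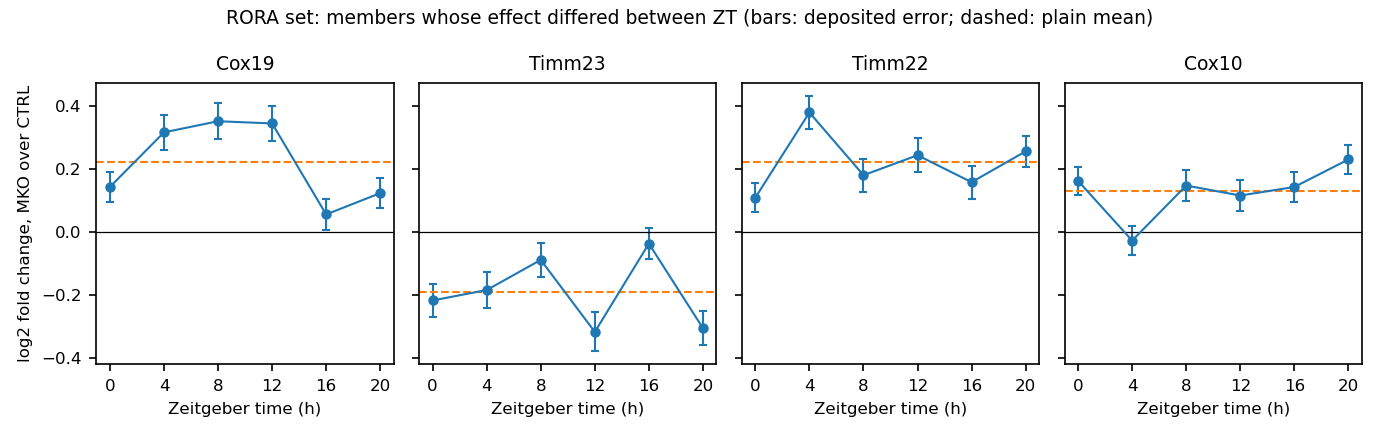
RORA log2 fold changes, MKO over CTRL (vertical axis), at 6 ZT (horizontal axis, h) for the 4 members that differed between ZT; points are deposited values with their deposited error, and the dashed line is the plain mean. Cox19 stands at 0.32 to 0.35 from ZT4 to ZT12 and at 0.06 at ZT16, and Cox10 falls to -0.03 at ZT4 only.

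In the PER2 set few members were called. By the mean over ZT, 2 of 41 were positive and 3 negative, with 21.6% of all genes called, 10.9% positive and 10.6% negative. The members' share was thus below that of all genes. Ndufaf6 was the clearest: its values by the authors' deposited tables were -0.23, -0.57, -0.27, -0.25, -0.13 and -0.16, negative at each ZT, with a mean of -0.27 ± 0.16 (adjusted p = 2.27e-06). It was called under each alternative run. Positive at all 6 ZT were Ndufaf4, Coa5 and Tomm70a, negative at all 6 Ndufaf6, Ndufaf5 and Timm44, as were 9.5% and 9.08% of all genes. Ndufaf4 was the reverse, at 0.14, 0.12, 0.19, 0.20, 0.0038 and 0.13 per the authors' deposited tables, positive throughout, with a mean of 0.13 ± 0.07. Coa5 was likewise positive at each ZT by the authors' deposited tables, at 0.0041, 0.16, 0.20, 0.20, 0.05 and 0.11, with a mean of 0.12 ± 0.08. Timm44 was negative at each ZT, at -0.0042, -0.16, -0.10, -0.09, -0.07 and -0.06 per the authors' deposited tables (mean -0.08 ± 0.05), and Ndufaf1 averaged -0.12 ± 0.13. None of these 4 was called with limma or without ZT4 and ZT12. Leaving out ZT4 or ZT8 alone also ended the calls of Ndufaf1 (adjusted p = 0.115 and 0.0996) and Timm44 (0.157 and 0.0718), and leaving out ZT12 that of Timm44 (0.0711). The TOM, TIM22 and small TIM genes had no member called, and the 36 members not called had means between -0.16 and 0.10.

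At single ZT, 6 of 246 PER2 values were called by the authors' deposited tables, all negative and all at ZT4, where 12.2% of all genes were called and 6.76% were called negative. They were Timm50 at -0.60, Ndufaf6 at -0.57, Tomm5 at -0.49, Timm22 at -0.37, Tomm40l at -0.36 and Timm23 at -0.32, the largest deposited adjusted p among them being that of Tomm5 (0.0323). At an adjusted p under 0.01, 1 remained. The members moved together by time point: 4 of 41 were above 0 at ZT4 (median -0.26) and 9 at ZT12 (median -0.18), but 33 at ZT0 (median 0.12), 24 at ZT8, 23 at ZT16 and 24 at ZT20. Of all genes, 50.5%, 48.7%, 48.0%, 45.6%, 49.9% and 48.1% were above 0 from ZT0 to ZT20. The pattern was not particular to the members. Among 37 structural subunits of complex I, 0 were above 0 at ZT4 (median -0.50), 1 at ZT12 and 36 at ZT0. Among 76 mitochondrial ribosomal protein genes, 3 were above 0 at ZT4 (median -0.32), 5 at ZT12 and 67 at ZT0. By Cochran's Q, 0 of 41 members differed between ZT, with 0.0463% of all genes called; 6 members had an unadjusted p under 0.05, as did 8.08% of all genes, and with z values in place of fold changes the test also called 0.

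These shared shifts went with transcript length. Over all genes with a length, the PER2 log2 fold change and length had a Spearman rho of 0.50 at ZT4 and 0.43 at ZT12, and of -0.23 at ZT0, where most members were above 0, and length and GC content together took up 26.1% and 23.8% of its variance there, with at most 2.96% at another ZT. The members are short, with a median of 2007 nt for their longest transcript against 3419 nt for all genes. Within the 41 members rho was 0.54 at ZT4 and 0.47 at ZT12. At ZT4 the shorter 20 members had a median of -0.30 and the longer 21 of -0.12. With the trend in length and GC content removed, the members' median was -0.12 at ZT4, with 9 of 41 above 0. It was -0.11 at ZT12, with 10 above 0, and 0.08 at ZT0, with 32 above 0. Red blood cell genes, short as well, stood at medians of -1.35 (ZT4) and -1.01 (ZT12), and at -0.95 and -0.71 with the trend removed. All 5 of them were called negative over the 6 ZT, as were 3 of 10 endothelial genes, and their part in the members' shifts was not tested.

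**Figure D4:**
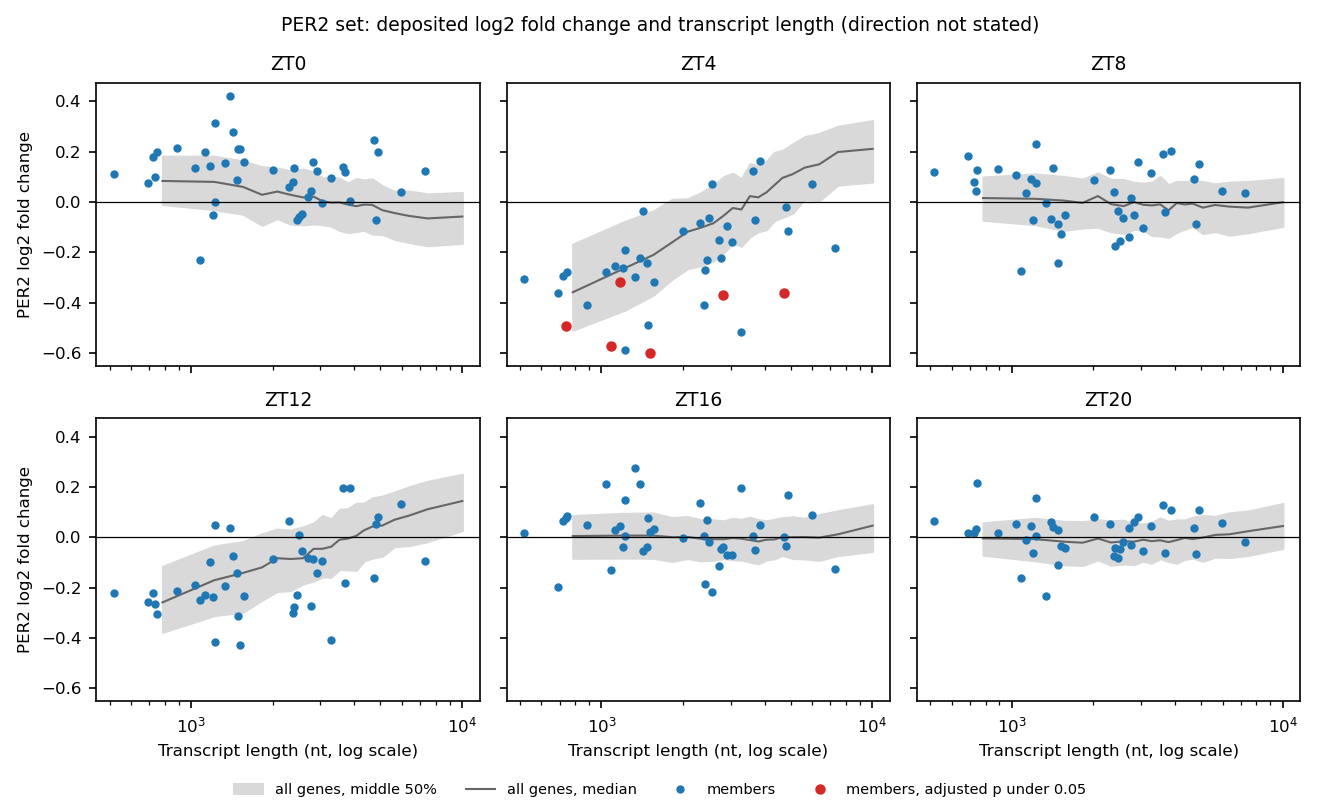
PER2 deposited log2 fold change (vertical axis, direction not stated) against the length of the longest transcript (horizontal axis, nt, log scale) at each ZT; the grey line and band are the median and middle 50% of all genes in 20 length bins, and points are the 41 members, red where called. At ZT4 and ZT12 the line rises with length and most members lie below 0, while at ZT0 it falls with length and most members lie above 0, and at ZT8, ZT16 and ZT20 it is flatter.

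The sets were then compared over the 40 shared members, each set with its own controls. The difference of the weighted means, RORA minus PER2, was called for 20 of 40 members (40.2% of all shared genes), and with the sign of PER2 turned for 6 (19.3%). Because the PER2 sign could be read either way, only a member called both ways can be said to differ between the sets. There were 5 of 40, a share near the 13.3% of all shared genes. For Timm17a the difference was 0.29 as deposited (adjusted p = 1.16e-10) and 0.21 with PER2 turned (adjusted p = 2.61e-05). For Timm22 it was 0.27 and 0.17, for Cox10 0.12 and 0.14, for Tomm34 -0.26 and -0.14 and for Timm23 -0.17 and -0.20, with adjusted p between 2.09e-06 and 0.0349 except Tomm34 as deposited (1.94e-08). These 5 were changed in RORA MKO muscle, and their PER2 means lay between -0.05 and 0.06 and were not called.

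As deposited, the means of the sets tended to opposite signs. Over the 40 members they had a Pearson r of -0.57 and a Spearman rho of -0.53, with -0.40 and -0.41 over all 11328 shared genes, and without ZT4 and ZT12 the members' values were -0.47 and -0.47. Opposite signs were seen in 31 of 40 members and 65.1% of all shared genes. The 5 of 40 members called in both sets, Ndufaf6, Ndufaf1, Timm44, Ndufaf4 and Coa5, all had opposite signs. Most shared genes called in both sets did so too. Of the 11328 shared genes, 1628 (14.4%) were called in both sets, and 1391 (12.3% of the 11328) with opposite signs. Ndufaf6 had the highest RORA mean, 0.30 ± 0.08, and the lowest PER2 mean, -0.27 ± 0.16. These are correlations across genes, which are not independent replicates. If the PER2 tables are CTRL over MKO, the signs would be alike, and this cannot be told apart from the tables. Among the partner genes in PER2, 1 of 26 import genes was positive and 5 negative. Of all genes, 21.6% were called, 10.9% positive and 10.6% negative. The import genes with the smallest adjusted p included Gfer, the oxidase of the intermembrane relay, at -0.30 ± 0.20, and Pmpcb at -0.11 ± 0.085. Dnajc19 at -0.18 ± 0.16 and Dnlz at -0.18 ± 0.19, both linked to the motor chaperone, came next. Of 24 other assembly genes 0 were positive and 4 negative by Stouffer's sum, among them Uqcc1 at -0.14 ± 0.09, Cox20, a chaperone of complex IV, at -0.19 ± 0.18, Taco1 at -0.13 ± 0.10 and Foxred1, for complex I, at -0.10 ± 0.07.

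**Figure D5:**
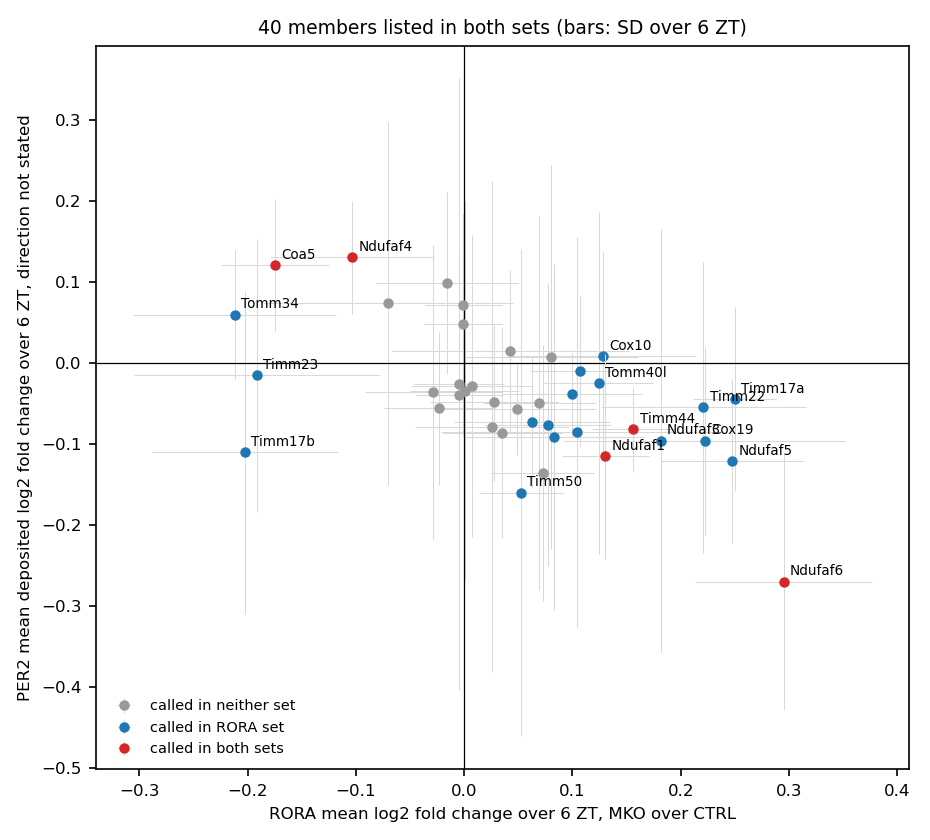
Mean log2 fold change over 6 ZT of the 40 shared members in the RORA set (horizontal axis, MKO over CTRL) and the PER2 set (vertical axis, direction not stated), with bars for the SD over ZT; red points are called in both sets, blue in RORA and grey in neither. The 5 red points lie in the upper left (Coa5, Ndufaf4) or lower right (Ndufaf6, Ndufaf1, Timm44), and Timm17a, Timm22, Tomm34 and Timm23 lie far from 0 on the RORA axis only.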

How the data were processed

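Per the labels' protocols, total RNA of muscle went into stranded poly-A libraries. Without roles or order, the submitters' processing notes list STAR, DESeq2, R 4.1, Trimmomatic, MultiQC and bcl2fastq 2.20.0.422 beside the builds mm9 and GRCm39. The read counter is not given in the sources used here. The 12 tables hold the authors' comparisons and no values per library. Per the file headers, the deposited RORA tables hold log2 fold changes with an error score, a signal column of mean normalized counts, and raw and adjusted p-values, and the labels name a filter of 10 reads in 3 samples. The deposited PER2 tables hold log2 fold changes, log2 CPM levels, likelihood ratio scores and raw and adjusted p-values. Their direction is not given. Deposited RORA fold changes over their error came to 0.795 of the z implied by their p (median), so sizes may be shrunken.

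The mean over ZT was tested with inverse-variance weights for RORA and with Stouffer's sum of z values for PER2, change with ZT by Cochran's Q (5 degrees of freedom, PER2 error derived from the likelihood ratio) and the difference between sets on weighted means. All were adjusted by Benjamini-Hochberg over all genes, or all shared genes for the difference. The tests were two-sided, except Cochran's Q, which used the upper tail of the chi-square distribution. The tests of the mean and of change with ZT were checked on simulated data, for PER2 with 1 error per gene. The difference between sets was not checked in this way. Alternatives used limma 3.58.1 (R 4.3.3), other ZT sets, trend removal for transcript length and GC content, centring, a level minimum (mean normalized count 50, or 1 CPM) and a threshold of 0.01. Lengths, GC content and overlaps came from GENCODE M21 and promoters from RefSeq. Python 3.11.15, NumPy 2.4.6, pandas 2.3.3, SciPy 1.17.1 and matplotlib 3.10.9 were used.

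Members and lists were chosen with earlier results of these data known. Values at all ZT are given for up to 4 members per role with the smallest RORA adjusted p, up to 2 per role in PER2, up to 5 that change with ZT and up to 6 that differ between sets in both readings. From each list of partner genes, the 4 smallest adjusted p per set are named. Cysteine motifs of the proteins were planned and not analysed here.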

Additional observations from a re-analysis of the deposited data

Results flagged for a closer look

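The RORA effect differed between ZT, by Cochran's Q adjusted over all genes, for 4 of 44 members and 11.0% of all genes. The adjusted p was 0.000376 for Cox19, and the values ran from 0.06 at ZT16 to 0.35 at ZT8 in the authors' deposited tables. It was 0.00917 for Timm23, from -0.32 at ZT12 to -0.04 at ZT16 in the authors' deposited tables. It was 0.0373 for Timm22, from 0.11 at ZT0 to 0.38 at ZT4 in the authors' deposited tables. It was 0.0428 for Cox10, from -0.03 at ZT4 to 0.23 at ZT20 in the authors' deposited tables. The call was lost for Timm23 without ZT16, for Timm22 without ZT0 or ZT4 and for Cox10 without ZT4 or ZT20, and for Cox19 under none of these.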

How the results depend on the processing

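No paired analysis was possible because the tables hold no values per library and their columns carry no replicate numbers. For the same reason no library could be left out, and the depth is unknown. Under the alternatives run, RORA gave 13 (limma) to 22 (Stouffer's sum) members up and 5 to 7 down, against 18 and 6. It gave 74 calls at single ZT at an adjusted p under 0.01. Of all genes, 29.8% were called with limma and 52.8% with Stouffer's sum, against 38.2%. Change with ZT in RORA gave 2 members without ZT4, 8 with z values from the deposited p and 2 without ZT0 and ZT4 (chosen after seeing the data), against 4. The shares of all genes were, in the same order, 6.81%, 18.4% and 4.29%, against 11.0%. For PER2, against 3 negative members, 5 were called without ZT0 and 1 each without ZT4, without ZT8, without ZT4 and ZT12 and with limma. Against 2 positive members, 1 was called without ZT4 and ZT12, 0 with limma, 1 with the trend in length and GC content removed and 4 with the median gene set to 0. Of all genes, the main PER2 test called 21.6%. The share was 21.4% without ZT0, 14.5% without ZT4, 18.9% without ZT8 and 10.6% without ZT4 and ZT12. It was 8.43% with limma, 19.3% with the trend removed and 21.6% with the median gene set to 0. With the trend removed, Timm44 (adjusted p = 0.334), Coa5 and Ndufaf4 lost their PER2 calls. PER2 calls at single ZT fell to 1 at an adjusted p under 0.01, against 6. The difference between sets was called for 6 members with the PER2 sign turned and for 13 without ZT4 and ZT12, against 20. Of all shared genes, 19.3% and 29.9% were called, against 40.2%. The cause of these moves was not tested. No called member changed sign under the alternatives run.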

Other observations

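The members that the symbol rule missed in the PER2 tables are listed there under older symbols, by RefSeq's synonyms. Coa7, as Selrc1, was positive throughout by the authors' deposited tables, from 0.03 to 0.26, with a mean of 0.16 ± 0.10 (Stouffer's sum, adjusted p = 0.000358), and -0.12 ± 0.05 in RORA. Timm29, as 1810026J23Rik, averaged -0.06 ± 0.05, Ndufaf8, as 1810043H04Rik, -0.08 ± 0.25, and Coa8, as Apopt1, -0.04 ± 0.11 in PER2, and these 3 were not called.

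The level that a gene has in the RORA tables can be set against its level in the PER2 tables. The ratio of the mean normalized count to CPM had a median of 14.2 over the 40 shared members and 12.6 over all shared genes at 1 CPM or more. It was under the 5th percentile of all those genes, 6.52, for 7 members: Cox16 (1.59), Timm8a1 (1.88), Timm23 (2.85), Cox17 (4.5), Tomm20 (4.54), Tomm5 (6) and Timm10b (6.48). Cox16, Timm23, Cox17 and Timm10b are among the 5 members whose exons overlap another gene on the same strand in GENCODE M21, and the fifth, Tomm6, has no RORA value. At the other end stood Cox11 (25.1), Timm17a (21.2) and Cox19 (18.4), with ratios above those of 97.8%, 96.8% and 95.1% of all those genes. Timm23, Timm17a and Cox19 are among the genes the results turn on, and how their reads were assigned in each set was not tested.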
